A study of Danio rerio with 4 samples.

Results

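Receptors through which the tone of brain vessels could be set were examined in cells sorted from the adult zebrafish brain by a pdgfr beta egfp transgene. Of the 32105 gene IDs in the count table, 88 carried a symbol that begins with the name of an adrenergic (ADRA, ADRB), endothelin (EDNR), angiotensin (AGTR), vasopressin (AVPR), prostanoid (PTGER, PTGIR, TBXA2R), lysophospholipid (S1PR, LPAR), purinergic (P2RY, P2RX, ADORA) or natriuretic peptide (NPR) receptor, or of a soluble guanylate cyclase subunit (GUCY1). The rule reads symbols and no measured value, although the receptor families themselves were picked with earlier results of these data known. At least 1 of the IDs, AGTRAP, encodes a receptor-associated protein rather than a receptor, and the GUCY1 IDs encode enzyme subunits that sense nitric oxide. Symbols are given as the naming table writes them, many in human style, so that 1 symbol can stand for several zebrafish gene copies. These are told apart by their Ensembl ID.

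The study is a single group of 4 RNA sequencing libraries, each from a pool of 6 brains of adult wildtype fish that carry the pdgfr beta egfp transgene, dissociated with Liberase and sorted for EGFP, with RNA amplified before sequencing. Titles and source names say pericyte, a cell type tag says muLEC, and the design text speaks of triplicates where 4 samples are listed. Column headings of the table cannot be tied to sample numbers, and the names B1 to B4 used below are those of the columns. The sample titles name no treatment, and no comparison group, such as EGFP-negative cells, was analysed here. Each value below is a level in the sorted cells rather than a response.

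Contractile cells of a vessel wall tighten when receptors coupled to Gq or G12/13 raise calcium or make the contractile fibres more sensitive to it, as alpha-1 adrenergic, endothelin A, angiotensin type 1 and thromboxane receptors do. They relax when Gs-coupled receptors raise cyclic AMP, as adenosine A2, prostaglandin EP2 and EP4 and prostacyclin receptors do, or when guanylate cyclases form cyclic GMP. Receptors coupled to Gi, such as S1P receptor 1, alpha-2 adrenergic and P2Y12-type receptors, lower cyclic AMP. P2X receptors are cation channels opened by ATP. These roles are known mainly from mammals and are given as background.

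Depth was 33270774 to 40441253 counts per library, at which 3 counts correspond to 0.0751 to 0.0879 CPM (counts scaled to a common library size, by TMM). The sort was checked on the marker lists. PDGFRB stood at 219, 76.0, 121 and 46.0 CPM in B1 to B4. Of the pericyte markers 9 of 15 tested lay above the level of the median tested gene, where 36.8% of all tested genes did. So did 6 of 10 for smooth muscle, 12 of 15 for radial glia and 9 of 12 for oligodendrocytes. The number was 5 of 15 for microglia and macrophages, 5 of 15 for neurons, 4 of 9 for meningeal mural lymphatic endothelium and 1 of 13 for endothelium. The microglia and macrophage list and its sum include coro1b, which lay above and entered through its symbol (entry CORO1), while CORO1A lay below. The pericyte list had KCNE4, rgs5b, ZIC1 and NOTCH3 as the 4 with most counts, and foxf2a at or under 3 counts in every library. Of its 15 tested IDs 3 lay below the level of the median tested gene, foxf2b, cspg4ba and CSPG4, at means of 5.38, 1.26 and 1.19 CPM. Another 3, TBX18, ABCC9 and KCNJ8, passed on neither side. RNA of other cells was present too. Summed marker levels over the libraries ran from 28486 to 53118 CPM for radial glia (15 IDs), 1440 to 4105 for oligodendrocytes (12 IDs), 1471 to 3560 for microglia and macrophages (23 IDs), 335 to 638 for smooth muscle (14 IDs), 184 to 809 for neurons (20 IDs), 198 to 358 for meningeal mural lymphatic endothelium (9 IDs) and 67.5 to 343 for endothelium (16 IDs), beside 896 to 2192 CPM for the 18 pericyte IDs. Library B1 stood apart. It had the highest neuron (809 CPM), endothelium (343), pericyte (2192) and meningeal mural lymphatic endothelium (358) sums of the 4. Its radial glia (28486) and smooth muscle (335) sums were the lowest. Of the oligodendrocyte IDs 8 of 12 were highest in B1, while their sum was highest in B2 (4105). That was through mbpa, at 2595 CPM in B2 and 362 in B1. Without mbpa the sum was highest in B1, at 2169.5, 1509, 838 and 708 CPM in B1 to B4. For meningeal mural lymphatic endothelium 5 of 9 IDs were highest in B1. Within these lists 15 of 20 neuron IDs were highest and 12 of 15 radial glia IDs lowest in B1. Over all tested genes 36% were highest and 43.7% lowest there. The pericyte list was split, with 8 of 18 IDs highest and 8 lowest there, and without KCNE4 (955 CPM in B1) its sum was highest in B2. The endothelium sum in B1 was mostly CLDN5 (ENSDARG00000043716) at 240 CPM, without which it was 103.4 CPM in B1 and 98.1 in B2. In bulk samples more cells of a type and more RNA per cell cannot be told apart.

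Of the 88 IDs, 43 reached 1 CPM in at least 2 libraries and were tested, where 53.8% of all IDs did. Each tested level was compared with the reference level, the median of 17283 tested genes at 12.6 CPM, in a quasi-likelihood fit (edgeR) whose p-values were adjusted by Benjamini-Hochberg over all tested genes. Of the tested receptor IDs 9 lay above the reference level, where 36.8% of all tested genes did, and 18 lay below it, where 33.2% of all did. The remaining 16 passed on neither side, where 29.9% of all did. At least 1 CPM in all 4 libraries was reached by 35 of the 88 IDs, beside 46.9% of all IDs. The median tested receptor stood at 9.51 CPM. No transcript lengths were at hand, so CPM values are not per length, a long transcript reaches a given CPM more readily than a short one, and no ranking of receptors by transcript number is drawn. Each p-value compares the mean of a gene with the reference level, taken as fixed. Its error is not the gene's own spread alone, since the fit moderates it with the spread of all tested genes between the 4 pools. That spread may be partly technical. Without B4 the number below the reference level was 11, and all 11 were among the 18.

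**Figure D1:**
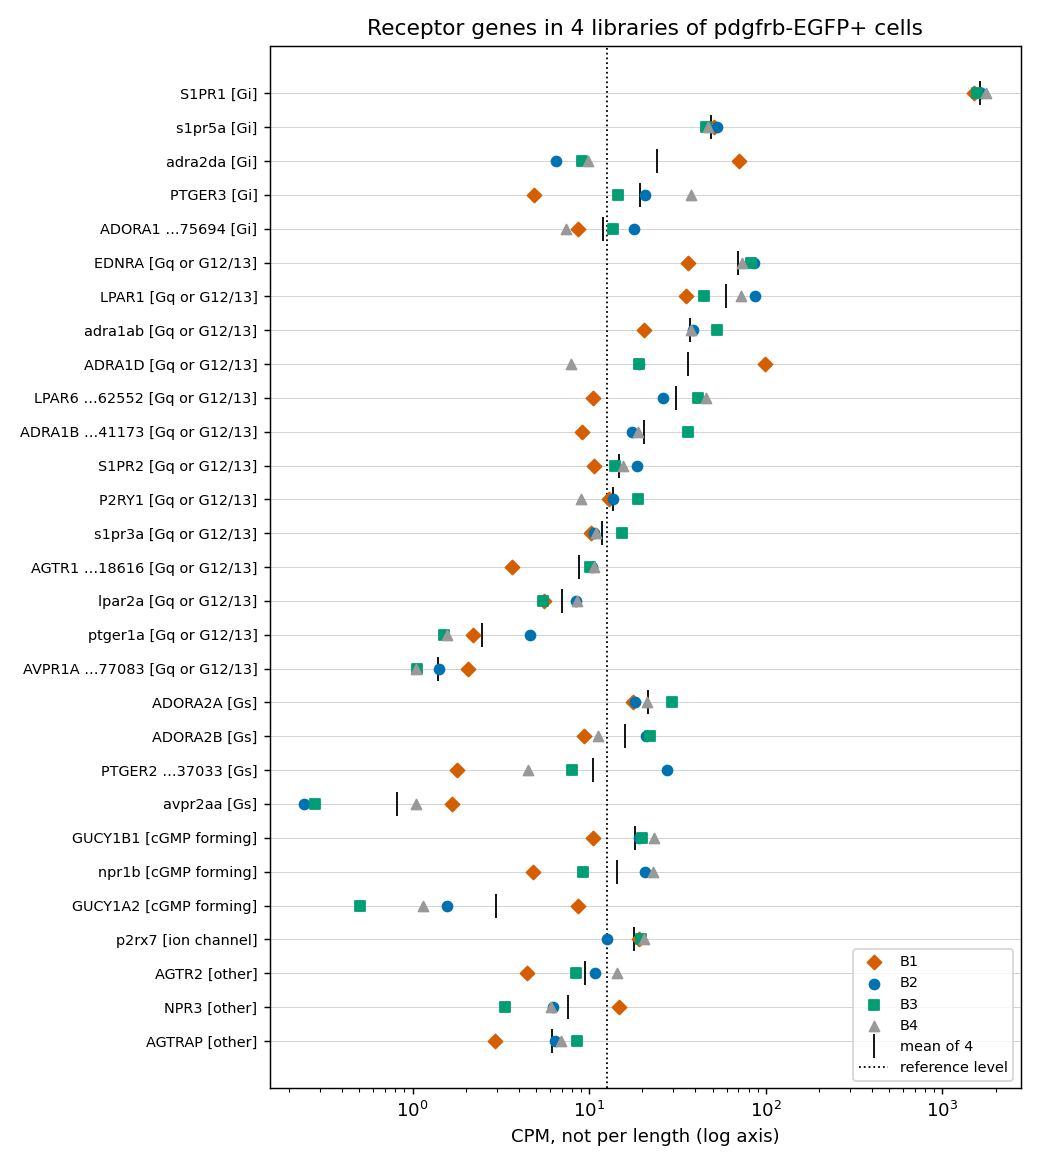
CPM (log axis, not per length) of 29 receptor IDs with a mean of at least 5 CPM or the highest mean of their tested family, in each of the 4 libraries (symbols), with the mean of 4 (bar) and the reference level of 12.6 CPM (dotted). S1PR1 lies between 1513 and 1776 CPM in all 4, while ADRA1D, adra2da and GUCY1A2 have B1 far to the right of the other 3; numbers after a symbol are the last digits of the gene ID and brackets give the main coupling in mammals.

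Receptors for lysophospholipids took most of the receptor counts. S1PR1 (ENSDARG00000042690) encodes S1P receptor 1, which in mammals is known from endothelium and astrocytes. From B1 to B4 it stood at 1513, 1663, 1576 and 1776 CPM. The 4 libraries were close to each other, and the level exceeded the reference by 7.01 ± 0.21 on the log2 scale (SE; edgeR adjusted p = 4.44e-09). Its mean of 1632 ± 114 CPM (SD, n = 4) was 71.3% of the 2290 ± 143 CPM summed over all 88 IDs. Without S1PR1 the sum was 658 ± 40.7 CPM. Over the same libraries the radial glia marker sum was 28486, 53118, 47982 and 50360 CPM and the endothelium sum 343, 113, 78.6 and 67.5 CPM. Their part in the level of S1PR1 was not tested.

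Of the other S1P receptor genes 1 lay above the reference level. s1pr5a (ENSDARG00000040526), whose mammalian counterpart is known from oligodendrocytes and natural killer cells, stood at 51.0, 52.8, 45.9 and 47.3 CPM in B1 to B4, which exceeds the reference by 1.96 ± 0.19 on the log2 scale (edgeR adjusted p = 4.66e-05). Its tagwise biological coefficient of variation, which the fit moderates towards that of other genes, was 0.376, the lowest of the 43 tested receptors. S1PR2 (ENSDARG00000036548), a G12/13-coupled receptor that is required for heart tube formation in zebrafish, stood at 10.6, 18.7, 13.9 and 15.6 CPM. s1pr3a (ENSDARG00000042470), whose mammalian counterpart raises calcium in smooth muscle, stood at 10.2, 10.7, 15.3 and 10.99 CPM, with B3 apart from the others. Neither S1PR2 nor s1pr3a passed the test against the reference level (edgeR adjusted p of 0.385 and 0.696). S1PR4, a receptor of blood cells, and the second S1PR5 ID were too low to be tested, at 0.615 and 1.61 CPM in B1 and at most 0.225 CPM elsewhere.

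Lysophosphatidic acid receptors split into levels above and below the reference. LPAR1 (ENSDARG00000099840), which in mammals signals through Gi, Gq and G12/13 in glia and mesenchymal cells, stood at 35.1, 86.4, 44.9 and 72.4 CPM in B1 to B4 (log2 2.24 ± 0.27 SE, edgeR adjusted p = 0.000126). LPAR6 (ENSDARG00000062552), a G12/13-coupled receptor, stood at 10.5, 26.0, 41.2 and 46.0 CPM (log2 1.29 ± 0.35, edgeR adjusted p = 0.00827). Both were lowest in B1. The call of LPAR6 was lost without B3 (edgeR adjusted p = 0.0581) and without B4 (0.0741). Below the reference level were lpar2a (ENSDARG00000042338) at 5.54, 8.37, 5.47 and 8.51 CPM (log2 -0.86 ± 0.24, edgeR adjusted p = 0.0259), LPAR2 at 0.867 to 6.71 CPM and lpar5a at 0.0879 to 2.33 CPM. The call of lpar2a was lost without B3 or without B4 (edgeR adjusted p of 0.0887 and 0.0546). LPAR2 was highest in B1, with a mean of 2.85 CPM that was 1.56 without B1, and its call was lost without B4 (edgeR adjusted p = 0.0507). lpar5a was lowest in B1, with 3 reads. LPAR3, LPAR4, lpar5b and the second LPAR6 ID were not tested, at 1.59, 0.0293, 1.99 and 0.275 CPM in their highest library.

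Receptors for endothelin were nearly all of the A type. EDNRA (ENSDARG00000011876), the contractile receptor of mural cells for endothelin 1, stood at 36.2, 86.1, 83.0 and 73.0 CPM from B1 to B4. B1 was below the other 3, and the level exceeded the reference by 2.46 ± 0.27 on the log2 scale (edgeR adjusted p = 5.59e-05). The second copy, ednrab, had 7 reads in all. The EDNRB IDs, which in mammals belong to endothelium and astrocytes, were not tested: the one with more reads stood at 1.55, 0.921, 0.363 and 0.425 CPM, the other at no more than 0.352. Over the libraries the smooth muscle sum was 335, 638, 501 and 487 CPM and the radial glia sum 28486, 53118, 47982 and 50360 CPM, both lowest in B1 like EDNRA. Over all tested genes 43.7% were lowest and 36% highest in B1, and the counts that follow stand beside these shares. Among the 14 smooth muscle IDs 6 were lowest in B1, such as acta2, and 4 were highest, such as MYH11 (ENSDARG00000009782). Among the 15 radial glia IDs 12 were lowest there. Of the pericyte IDs 8 of 18 were lowest in B1, among them rgs5b, RGS5 and NDUFA4L2, and 8 were highest, among them PDGFRB. Their part in the spread of EDNRA was not tested.

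Alpha-1 adrenergic receptor genes, for the contractile response to noradrenaline, had different patterns over the libraries. adra1ab (ENSDARG00000027638) stood at 20.4, 38.7, 52.9 and 37.7 CPM in B1 to B4 (log2 1.57 ± 0.26 SE, edgeR adjusted p = 0.000947). ADRA1B (ENSDARG00000041173) stood at 9.05, 17.5, 36.3 and 18.9 CPM and did not pass with 4 libraries (log2 0.69 ± 0.33, edgeR adjusted p = 0.0804), but lay above the reference level without B1 (log2 0.94, edgeR adjusted p = 0.00566). Both were lowest in B1 and highest in B3. ADRA1D (ENSDARG00000024101) ran the other way, at 98.4 CPM in B1 against 19.1, 19.1 and 7.86 in B2 to B4. Its level passed with 4 libraries (log2 1.51 ± 0.57, edgeR adjusted p = 0.0248) and not without B1, where its mean was 15.3 CPM and the adjusted p 0.341. By limma-voom its adjusted p was 0.136. ADRA1A lay below the reference level at 1.28 to 3.72 CPM.

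Gi-coupled alpha-2 adrenergic receptors had most of their CPM in adra2da, at 88.3, 51.4, 64.5 and 63.3% of the sum in B1 to B4. adra2da (ENSDARG00000091277), of the alpha-2D class, stood at 71.0 CPM in B1 and at 6.50, 9.05 and 9.88 CPM in B2 to B4. Its level did not pass with 4 libraries (log2 0.93 ± 0.61, edgeR adjusted p = 0.163), and without B1 it lay below the reference level at a mean of 8.48 CPM (log2 -0.57, edgeR adjusted p = 0.0410). ADRA2B at 2.01 to 5.65 CPM and ADRA2A at 1.11 to 3.03 CPM lay below. ADRA2C, not tested, had 78 of its 95 reads in B1. The neuron marker sum was 809, 184, 189 and 312 CPM over B1 to B4, with 15 of its 20 IDs highest in B1 and syt1b at or under 3 counts throughout. The endothelium sum was 343, 113, 78.6 and 67.5 CPM, with 4 of 16 IDs highest in B1 and most of the B1 sum in CLDN5. The sum for meningeal mural lymphatic endothelium was 358, 275, 239 and 198 CPM, with 5 of 9 IDs highest in B1. These sums were high in B1 like ADRA1D and adra2da, as were 8 of 12 oligodendrocyte IDs. Over all tested genes 36% were highest in B1. Their part in those levels was not tested.

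Gs-coupled adrenergic receptors below the reference level were ADRB3 at 1.93 to 6.04 CPM and ADRB1, the cardiac beta receptor, at 0.419 to 1.67 CPM. ADRB1 was no longer tested without B1 or without B4.

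Angiotensin receptors passed on neither side. AGTR1 (ENSDARG00000018616), the type 1 receptor that contracts vessels, stood at 3.66 CPM in B1 and at 10.4, 10.1 and 10.7 CPM in B2 to B4 (log2 -0.54 ± 0.31, edgeR adjusted p = 0.180). AGTR2 (ENSDARG00000035552), the type 2 receptor that opposes it, stood at 4.45, 10.7, 8.44 and 14.4 CPM (log2 -0.41 ± 0.31, edgeR adjusted p = 0.288). B1 was the lowest library for both. AGTRAP (ENSDARG00000077082), which promotes internalisation of the type 1 receptor, stood at 2.93, 6.39, 8.55 and 6.91 CPM and lay below the reference level (log2 -1.03 ± 0.30, edgeR adjusted p = 0.0315), a call lost without B2 (0.0691) and without B4 (0.0680).

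Vasopressin receptors were low. AVPR1A (ENSDARG00000077083), the V1 receptor of vessel contraction, stood at 2.05, 1.41, 1.06 and 1.05 CPM (log2 -3.18 ± 0.33, edgeR adjusted p = 0.000929). avpr2aa (ENSDARG00000007436), a V2-type receptor coupled to Gs, stood at 1.67, 0.244, 0.279 and 1.05 CPM and also lay below (log2 -3.96 ± 0.55, edgeR adjusted p = 0.00374). Its mean of 0.811 CPM was 0.525 without B1, and it was no longer tested without B1 or without B4. The other 4 vasopressin receptor IDs were not tested, with 16 to 48 reads each.

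Prostanoid receptors differed widely between pools. PTGER3 (ENSDARG00000055781), the Gi-coupled EP3 receptor, stood at 4.89, 20.8, 14.6 and 37.6 CPM in B1 to B4 (log2 0.63 ± 0.43, edgeR adjusted p = 0.198, and above the reference level without B1 at 0.95 with an adjusted p of 0.00889). PTGER2 (ENSDARG00000037033), the relaxing EP2 receptor, stood at 1.79, 27.5, 8.04 and 4.53 CPM (log2 -0.27 ± 0.58, edgeR adjusted p = 0.702). Library B2 decided its mean, which was 10.5 CPM with B2 and 4.79 without. PTGS2 (ENSDARG00000004539), the inducible enzyme of prostaglandin synthesis, was also highest in B2, at 586 CPM against 24.6, 69.8 and 71.0 in B1, B3 and B4. The second PTGS2 ID (ENSDARG00000010276) was highest in B3, at 5.36 CPM, and 24.8% of all tested genes were highest in B2. A link between PTGS2 and PTGER2 was not tested. Below the reference level were ptger1a (ENSDARG00000078605), an EP1 receptor, at 2.20, 4.60, 1.51 and 1.58 CPM (log2 -2.35 ± 0.37, edgeR adjusted p = 0.00406) and the second PTGER2 ID at 0.498 to 1.502 CPM, which was no longer tested without B2 or without B4. The EP4 gene PTGER4 (ENSDARG00000035415) reached 4.92 CPM in B1 with 168 reads and at most 0.926 CPM in the other 3, and was not tested. PTGIR, for prostacyclin, and TBXA2R, for thromboxane, had 27 and 66 reads over the 4 libraries, at most 0.325 and 0.642 CPM in any of them.

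Adenosine receptors were present in both classes. ADORA2A (ENSDARG00000033706), a Gs-coupled receptor that dilates brain arterioles, stood at 17.8, 18.3, 29.4 and 21.2 CPM in B1 to B4 (log2 0.78 ± 0.22, edgeR adjusted p = 0.0125). The call was lost without B3 (edgeR adjusted p = 0.165) and without B4 (0.0849), while all 4 libraries were above the reference level of 12.6 CPM. ADORA2B (ENSDARG00000002533), the low-affinity A2 receptor, stood at 9.32, 20.9, 22.0 and 11.3 CPM, and the Gi-coupled ADORA1 (ENSDARG00000075694) at 8.67, 17.8, 13.7 and 7.38 CPM. For both of these B2 and B3 were above B1 and B4, and neither passed (edgeR adjusted p of 0.308 and 0.799). adora2ab and adora3a.1 had 34 and 61 reads in all.

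Receptors for ATP and related nucleotides were represented by P2RY1 and p2rx7. P2RY1 (ENSDARG00000105281), a Gq-coupled ADP receptor, stood at 12.9, 13.7, 18.8 and 8.96 CPM (log2 0.11 ± 0.24, edgeR adjusted p = 0.706) and made up 97.5% of the summed CPM of the 7 P2Y IDs outside the Gi type. p2rx7 (ENSDARG00000042440), a channel opened by high ATP, stood at 19.0, 12.6, 19.6 and 20.5 CPM (log2 0.51 ± 0.22, edgeR adjusted p = 0.0626). It passed above the reference level without B1 (0.0395) and by limma-voom (0.0405). In the RefSeq table of the build GRCz12tu p2rx7 overlaps p2rx4b, so reads could be shared between them. Other receptor genes overlap a neighbour there as well. Among them are gucy1a2 (nlrc3l), npr3 (arid3c), adora2b (zswim7), adora1b (mmp9), agtr1b (zic1 and zic4), adrb1 (dclre1a) and p2ry11 (ppan). The same limit holds for these genes, and sharing of reads was not tested. P2RX3 at 1.88 to 7.35 CPM and P2RX4 (ENSDARG00000044752) at 0.820 to 3.55 CPM lay below the reference level. P2RY12 and P2RY13, Gi-coupled receptors known as marks of microglia in mammals, had 34 reads each, at most 0.475 and 0.447 CPM, in libraries whose microglia and macrophage marker sum was 1680, 1471, 1936 and 3560 CPM. In that sum apoeb stood at 1241, 942, 934 and 2620 CPM, and the other IDs together at 439, 528, 1002 and 940 CPM. Among these other IDs was coro1b, at 260, 135, 138 and 157 CPM, which entered the list through its symbol (entry CORO1). Of the 15 tested IDs of the list 5 lay above the reference level, among them coro1b, and cd74b and cd74a at means of 250 and 202 CPM. Another 8 lay below it, among them CORO1A at a mean of 5.50, csf1ra at 0.515 to 4.48 and c1qb at 1.96 to 2.93 CPM. p2rx1, the P2X channel of arterial smooth muscle in mammals, also had 34 reads. P2RY11 had no read in any library, which allows up to 0.0751 to 0.0879 CPM, and the P2RY2 IDs (3) and LPAR4 had 1 to 3 reads each. These were the 5 receptor IDs at or under 3 counts in every library, where 22.3% of all IDs were.

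Cyclic GMP can be formed by natriuretic peptide receptors at the membrane and by soluble guanylate cyclase in the cytosol. npr1b (ENSDARG00000018750), a receptor cyclase, stood at 4.81, 20.7, 9.27 and 22.9 CPM in B1 to B4 (log2 0.19 ± 0.39, edgeR adjusted p = 0.664), whereas npr1a at 4.10 to 5.56 CPM and npr2 at 2.08 to 4.86 CPM lay below the reference level. NPR3 (ENSDARG00000035253), the clearance receptor that removes the peptides, stood at 14.7, 6.23, 3.35 and 6.11 CPM. It did not pass with 4 libraries (log2 -0.73 ± 0.37, edgeR adjusted p = 0.138) and lay below the reference level without B1 (log2 -1.27, adjusted p = 0.00684). npr1b was lowest and NPR3 highest in B1. The peptide gene nppc (ENSDARG00000068126), a ligand of npr2 and NPR3 type receptors, stood at 29.0, 166, 159 and 77.1 CPM, lowest in B1 as well.

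Soluble guanylate cyclase, the nitric oxide receptor, is a dimer of an alpha and a beta subunit. The beta gene GUCY1B1 (ENSDARG00000086790) stood at 10.5, 19.2, 20.0 and 23.3 CPM in B1 to B4 (log2 0.53 ± 0.25, edgeR adjusted p = 0.0797, and above the reference level without B1 at 0.73 with an adjusted p of 0.00207). GUCY1A2 (ENSDARG00000093185), an alpha gene, stood at 8.67, 1.57, 0.503 and 1.15 CPM, that is 296, 58, 18 and 46 reads. It did not pass with 4 libraries (log2 -2.09 ± 0.65, edgeR adjusted p = 0.0519) and lay below the reference level without B1 (mean 1.07 CPM, adjusted p = 0.00116), by DESeq2 (0.00234) and by limma-voom (0.00644). GUCY1A1, the other alpha gene, which neighbours gucy1b1 in the RefSeq table, had 97, 28, 3 and 68 reads and lay below (log2 -3.23 ± 0.65, edgeR adjusted p = 0.0148), at a mean of 1.35 CPM that was 0.848 without B1, and it was no longer tested without B1 or without B4. The alpha genes were highest and GUCY1B1 lowest in B1. The other beta gene, gucy1b2, was not tested, at 0.557, 0.487, 0.307 and 0.501 CPM in B1 to B4.

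Ratios between receptor classes were taken within each library, as a description, not per length. Each is a ratio of sums over several genes, so its change between libraries also depends on the lengths of the genes that change their share. For soluble guanylate cyclase the log2 ratio of summed alpha to beta CPM was 0.05 in B1 and -3.08, -5.11 and -3.06 in B2 to B4. The natriuretic cyclase to clearance ratio was -0.29 in B1 and 2.23, 2.55 and 2.33 in the others. That of alpha-1 to alpha-2 adrenergic receptors was 0.71 in B1 and 2.64, 3.00 and 2.07 in the others. In these 3 ratios B1 lay outside the range of the other libraries. Endothelin A to B gave 4.25 in B1 against 6.08, 7.84 and 7.42 in B2 to B4, and B1 lay outside the range of the others there as well. The EDNRB IDs were too low to be tested, with a sum of 1.90, 1.27, 0.363 and 0.425 CPM in B1 to B4. In B3 and B4 this ratio rests on 13 and 17 EDNRB reads. Adenosine A1 to A2 (-1.55, -1.12, -1.85 and -2.08) and P2Y to P2X (-0.67, -0.47, -0.65 and -1.47) had B1 inside that range. With 4 libraries an exact sign-flip test cannot go below 0.125, so none was used.

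**Figure D2:**
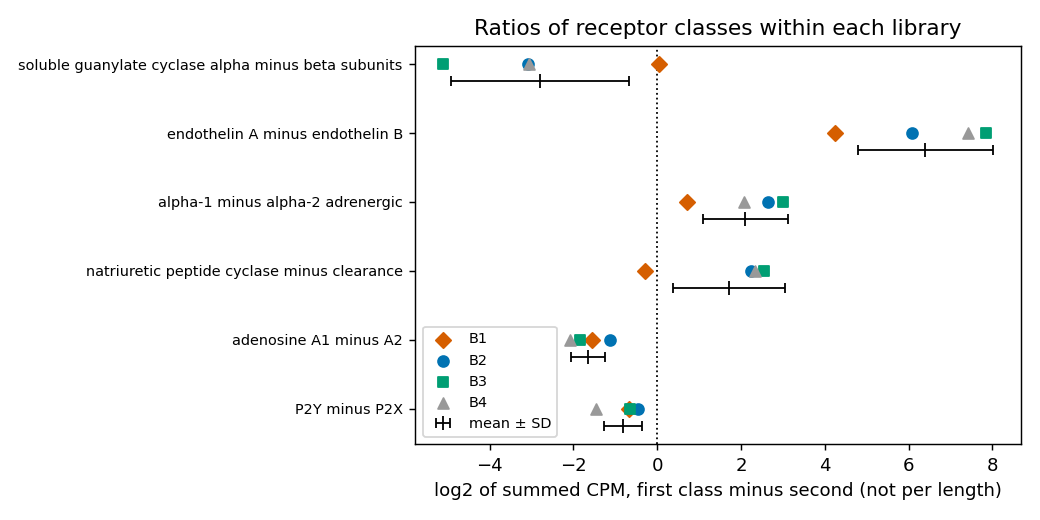
Log2 ratio of the summed CPM (not per length) of 2 receptor classes within each library (symbols) with the mean ± SD of 4. B1 lies apart from the other 3 libraries in the upper 4 ratios, at 0.05 against -5.11 to -3.06 for soluble guanylate cyclase, and among them in the lower 2. The endothelin ratio rests on 13 and 17 EDNRB reads in B3 and B4.

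How far B1 differed was then set against all genes. B1 held the lowest CPM of 25 of the 43 tested receptor IDs, where 43.7% of all tested genes were lowest in B1, and the highest of 10, where 36% of all were. In 17 receptor IDs B1 was at most 1/2 of the mean of B2 to B4, beside 25.6% of all tested genes, and in 9 it was at least 2-fold above that mean, beside 20.5%. The median ratio of B1 to the mean of B2 to B4 was 0.668 in the tested receptors and 0.884 over all tested genes. The 9 high IDs were adra2da (8.37-fold), GUCY1A2 (8.07-fold), ADRA1D (6.42-fold), LPAR2, GUCY1A1, avpr2aa, NPR3, ADRB1 and ADRA2B. On the other side PTGER2 (ENSDARG00000037033) 7.48-fold, PTGER3 4.98-fold, npr1b 3.67-fold and LPAR6 (ENSDARG00000062552) 3.61-fold higher in the mean of B2 to B4 than in B1. For lpar5a, with 3 reads in B1, that ratio was 20.5, with a 95% interval of 7.03 to 99.6 (exact Poisson, for the counting error of the B1 reads alone). The tagwise biological coefficient of variation, a moderated value, had a median of 0.515 over the tested receptors, from 0.376 to 0.881, and 0.477 over all tested genes.

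**Figure D3:**
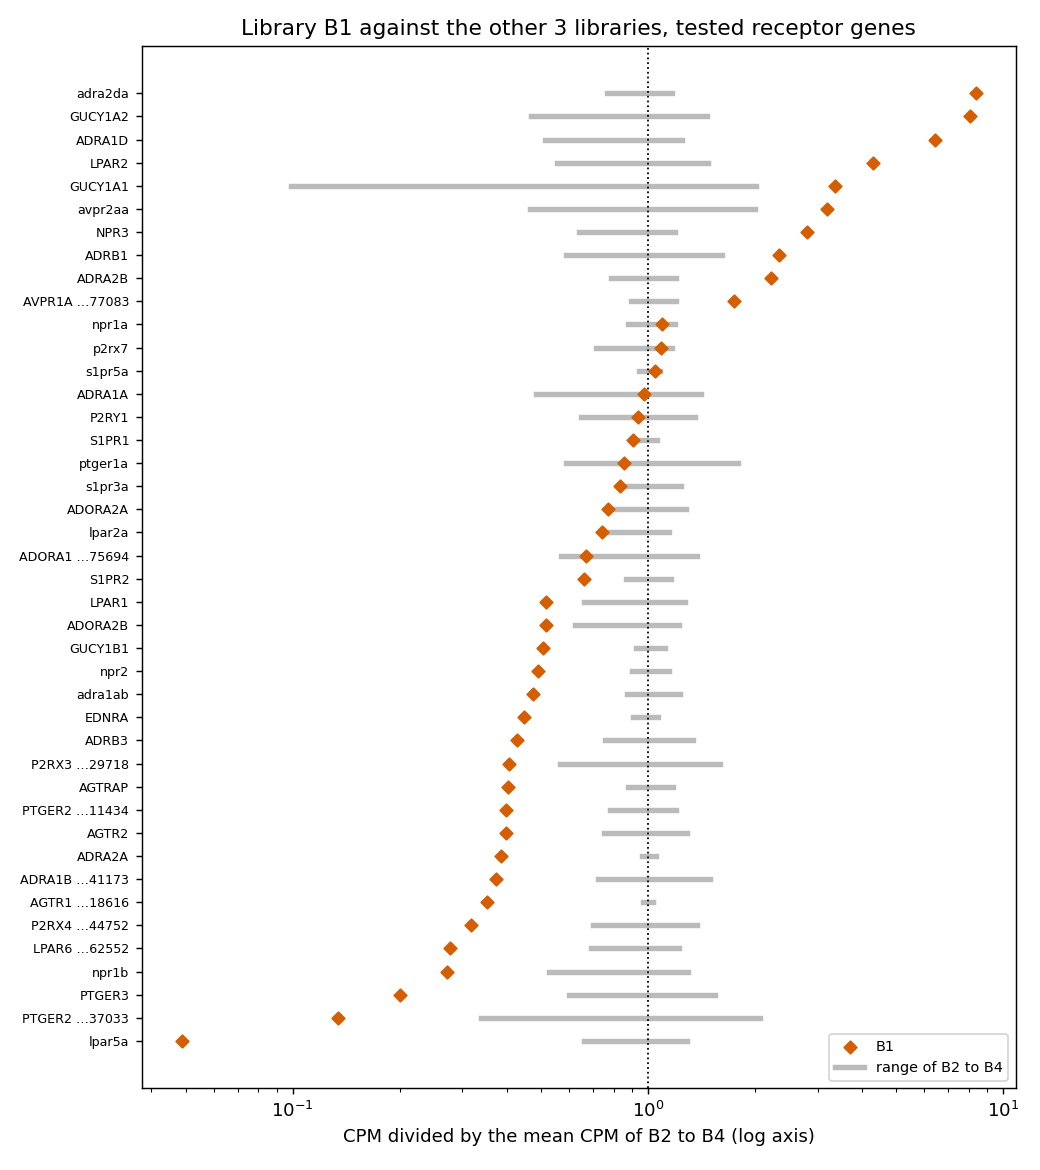
CPM in B1 divided by the mean CPM of B2 to B4 (log axis, diamonds) for 42 tested receptor IDs, with the range of B2 to B4 on the same scale (grey). The points run from lpar5a at 0.0487, which rests on 3 reads in B1, to adra2da at 8.37, with S1PR1 at 0.905 and s1pr5a at 1.05.

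Zebrafish carry many of these genes in more than 1 copy, and 12 symbols stood for 25 IDs. In 11 of the symbols, each with 2 IDs, the ID with more reads in total also had more reads in each of the 4 libraries. The share of the symbol's reads counted to it was 99.9 ± 0.297% for LPAR6, 96.0 ± 5.78% for ADRA1B, 95.5 ± 2.97% for ADORA1, 95.2 ± 5.85% for AGTR1 and 95.0 ± 8.48% for P2RX4 (SD, n = 4). PTGER4 had 93.7 ± 8.05%, P2RX3 93.4 ± 5.45% and EDNRB 88.5 ± 13.8%, and the lowest shares were those of PTGER2 at 84.5 ± 9.53% and AVPR1A at 84.4% (from 71.4 to 97.4%). The leading ID was chosen by its reads, so a share over 50% is no finding in itself. Transcript length and the split of reads between near-identical copies bear on it and were not tested. Copies written with different symbols are not among these 12, and some changed order. In B1 npr1a had 175 reads and npr1b 164, and LPAR2 had 229 and lpar2a 189, while npr1b and lpar2a led in B2 to B4. On the other side s1pr5a, EDNRA and ADORA2A had more reads than S1PR5, ednrab and adora2ab in all 4 libraries.

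**Figure D4:**
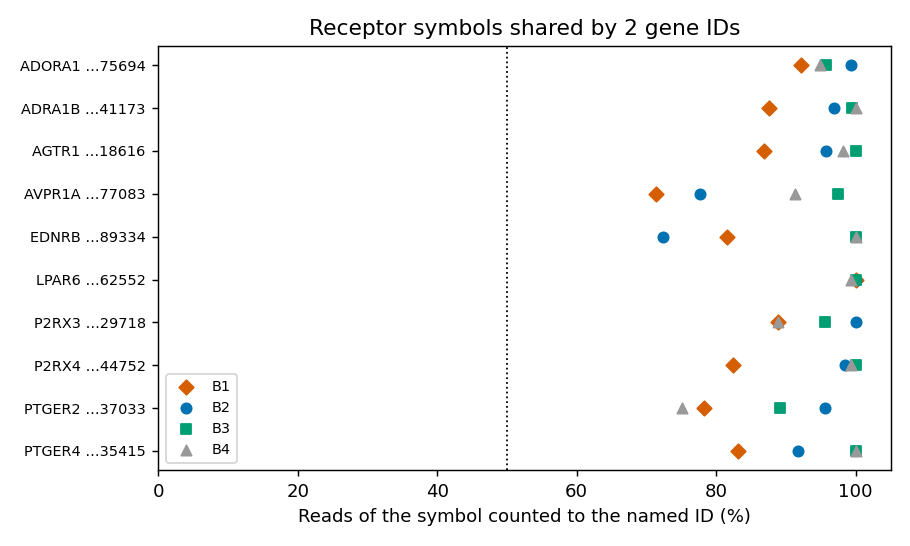
Share of the reads of a symbol (%) that were counted to the ID with more reads (last digits beside the symbol), in each of the 4 libraries, for 10 receptor symbols shared by 2 IDs. Shares run from 71.4% for AVPR1A in B1 to 100% and none is under 50%.

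Genes that make or remove the ligands, and those that act after the receptors, were counted on each side of the reference level. Of 18 tested genes for ligands and their synthesis 6 lay above (33.3%) and 6 below (33.3%). Of all tested genes 36.8% lay above and 33.2% below. The 4 with most counts were PTGS2 at 188 ± 267 CPM (55.1 CPM without B2), PTGES3, a prostaglandin E synthase and co-chaperone, at 127 ± 33.1, nppc at 108 ± 66.3 and ace, the angiotensin-converting enzyme, at 91.0 ± 23.7 CPM. Of 22 tested genes for ligand breakdown and uptake 11 lay above and 3 below (5 without B1). They included mao, the monoamine oxidase, at 172 ± 31.9 CPM, the lipid phosphatase gene PLPP1 at 70.5 ± 37.8, the S1P phosphatase gene sgpp1a at 59.5 ± 41.6 (38.8 without B1) and the adenosine kinase gene ADK at 48.3 ± 1.46 CPM.

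Effectors of contraction had 16 of 29 tested genes above the reference level, beside 36.8% of all tested genes. Below it were 9 (4 without B2 and 5 without B3), beside 33.2% of all. Those with most counts were the myosin light chain gene MYL9 at 269 ± 48.0 CPM, the GTPase genes rhoaa at 138 ± 31.6 and rhoab at 104 ± 22.4, and gna12a, of the G12 class, at 76.0 ± 67.0 (42.6 without B1). Cyclic nucleotide effectors had 10 of 31 (32.3%) above, near the share of all genes, and 8 below (13 without B1 and 4 without B4). Among them were the Gi subunit GNAI2 in both copies, at 268 ± 50.2 CPM for ENSDARG00000018174 and 103 ± 10.7 for ENSDARG00000017294, the kinase subunit PRKAR2A at 209 ± 170 (124 without B1) and the phosphodiesterase gene PDE4B at 125 ± 22.0 CPM. Of 13 tested genes for receptor desensitisation and RGS proteins, which shorten G protein signals, 7 lay above and 3 below, with rgs5b at 272 ± 283 CPM (136 without B2), rgs3a at 145 ± 57.5, ARRB2, an arrestin, at 138 ± 21.5 and the receptor kinase gene GRK4 at 104 ± 18.5 CPM. rgs5b is also in the pericyte marker list. Against the 36.8% and 33.2% of all tested genes these counts are a description of the lists.

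**Figure D5:**
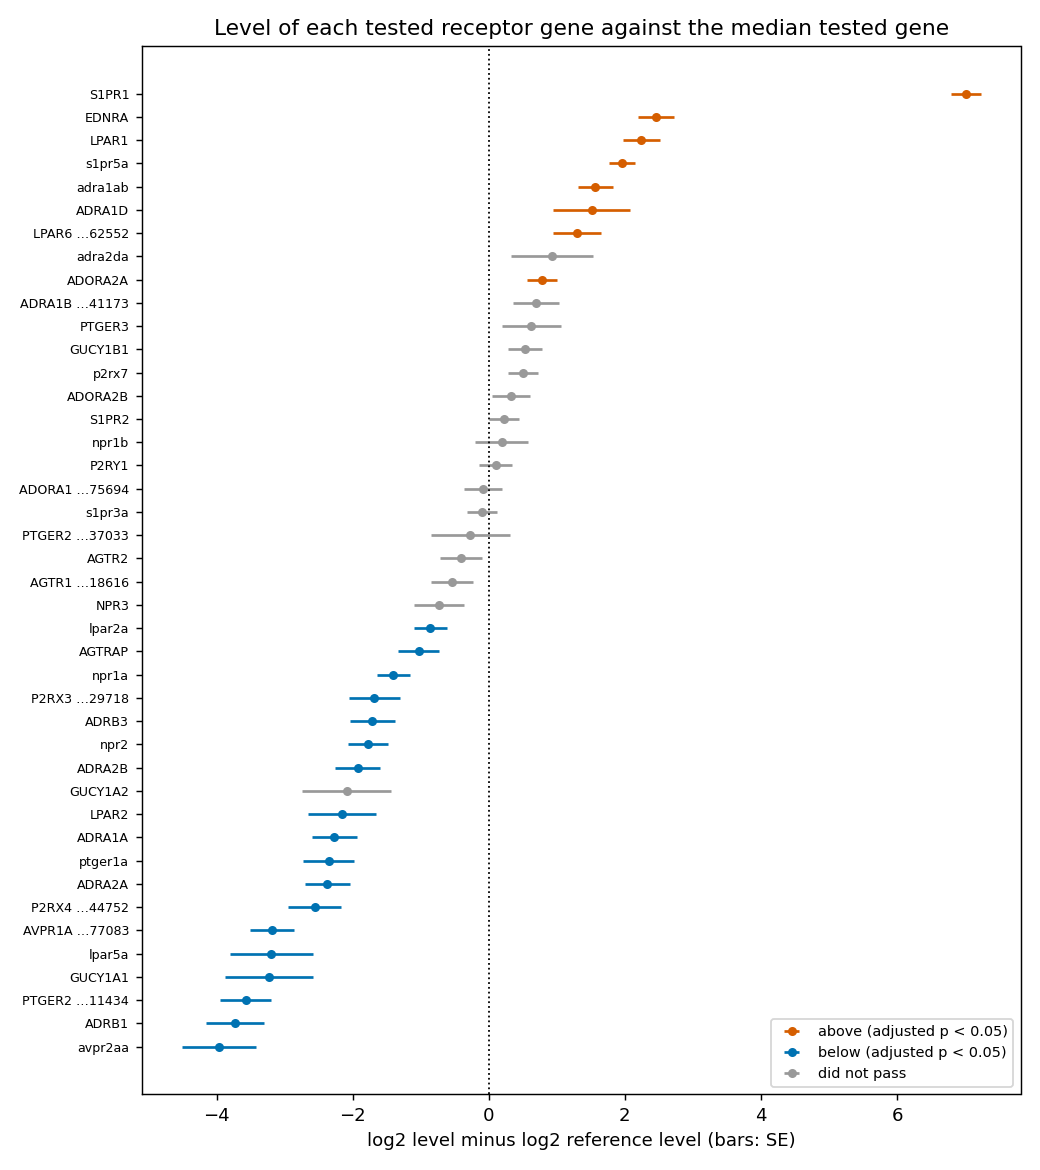
Log2 level minus the log2 reference level of 12.6 CPM for 42 tested receptor IDs, with SE bars from the edgeR fit (4 libraries, not per length). The 8 plotted IDs above the reference level run from ADORA2A at 0.78 to S1PR1 at 7.01, the 18 below from lpar2a at -0.86 to avpr2aa at -3.96, and 16 did not pass.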

How the data were processed

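Raw counts for each Ensembl gene, as whole numbers, were deposited by the authors, and YuGene scores between 0 and 1 set within each library, with 1 column per library. Per the submitters' processing notes bcl2fastq, R 3.2.2 and the build GRCz10 were used; no aligner, counter or annotation is named there or in the labels. The naming table gave 26269 of 32105 IDs a symbol, and 5836 IDs without one could not be matched. All 4 columns were used as unnumbered libraries of 1 group, with 0 columns left out.

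Counts were scaled by TMM in edgeR 4.0.16 (R 4.3.3). A gene entered the test when 2 or more libraries reached 1 CPM. By the quasi-likelihood method, 1 mean per gene was fitted and compared (two-sided) with the median of all fitted CPM values, with the F statistic formed from the drop in deviance, since edgeR's own function takes no intercept-only model. Adjusted p-values are Benjamini-Hochberg over all tested genes at 0.05. On simulated counts for 17283 genes all 50 genes set 4-fold over the reference were recovered, as were all 50 set to 0.25 of it. Of 50 set 2-fold over it 40 were recovered, and 34 of 50 set to 0.5 of it, while 6 of 200 genes left at the reference were called. Every simulated gene had the same biological coefficient of variation, 0.5, and no TMM scaling was applied. In the tested receptors it ran from 0.376 to 0.881, and recovery of genes that vary more than the simulated ones was not tested.

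Values per library are given for IDs with a mean of at least 5 CPM and for the ID with the highest mean of each family with a tested ID; other tested IDs are given by range. The 4 genes with most counts are named in each pathway list. Receptors, families and lists were chosen with earlier results of these data known. DESeq2 1.42.0, limma-voom (limma 3.58.1), other scalings, no filter and leaving out each library were tried. Reads carry no molecular identifiers, so floors cover counting error only. Sequences and transcript lengths were not used here. The values of 1 receptor gene that enters the counts and sums are not reported here.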

Additional observations from a re-analysis of the deposited data

Results flagged for a closer look

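There were 30 receptor IDs with a mean of at least 5 CPM or the highest mean of their tested family. In 5 of these 30, 1 library lay apart, its gap to the nearest other library taking most of the range of the 4. The rule picks out about 1 in 20 groups by chance in normally distributed values, a shape that CPM values need not have. It picked out 16.6% of all tested genes here, 11.7% with B1 high. The 16.7% picked out of these 30 IDs is near the share of all tested genes. ADRA1D stood at 98.4 CPM in B1 against at most 19.1 in the others, adra2da at 71.0 against at most 9.88 and GUCY1A2 at 8.67 against at most 1.57. In the same library AGTR1 (ENSDARG00000018616) was low, at 3.66 CPM against at least 10.1. s1pr3a was high in B3, at 15.3 CPM against at most 10.99. The summed neuron markers were also highest in B1, as were 15 of their 20 IDs, and their part in these values was not tested. The endothelium sum was highest there too, mostly through CLDN5 (ENSDARG00000043716), with 4 of its 16 IDs highest in B1. So was the sum for meningeal mural lymphatic endothelium, with 5 of its 9 IDs, and 8 of 12 oligodendrocyte IDs were highest in B1. Over all tested genes 36% were highest in that library. The part of these lists was not tested either.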

How the results depend on the processing

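Without a filter on low values, 63 receptor IDs lay below the reference level in place of 18, because many IDs with few reads were then tested, and 9 lay above as before. The number above was 9 by DESeq2's size factors, library totals, DESeq2's test and limma-voom, with 8 of the 9 genes kept by limma-voom and 9 by the others, and 7 to 12 with 1 library left out. The number below was 18 or 19 under those settings and 11 to 18 with 1 library left out. The lowest is that without B4, where 4 of the 18 were no longer tested; the cause for the other 3 was not tested. In the pathway lists, examined this way after the data were seen, the number below ran from 4 to 13 for cyclic nucleotide effectors, from 4 to 11 for contraction effectors, and from 2 to 5 for ligand breakdown and uptake with 1 library left out. Of the alternative values for single receptors 240 kept call and direction, 10 lost and 10 gained a call, and 7 turned the direction of a level that had passed on neither side. By limma-voom s1pr3a stood at log2 0.0202 against the reference. With 1 library left out the log2 level ran from -0.57 (without B1, where it passed below) to 1.18 for adra2da, from -0.18 to 0.17 for P2RY1, from -0.43 to 0.0441 for ADORA1 (ENSDARG00000075694), from -0.21 to 0.49 for npr1b and from -1.48 to 0.0868 for PTGER2 (ENSDARG00000037033); the cause of these turns was not tested. Numbers of receptors highest in each library stayed within 1.5 times by library totals and by the deposited YuGene scores. No paired analysis was possible because there is 1 group. The correction for transcript length was not run, since no lengths were at hand. The 45 receptor IDs that were not tested did not reach 1 CPM in 2 libraries, which limits what can be said of them. Of these, 5 were at or under 3 counts in every library. Others had more reads, such as PTGER4 (ENSDARG00000035415) with 168 in B1.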
